A study of Mus musculus with 20 samples.

Results

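The genes described here, 7 cardiac genes for membrane channels, are the connexins Gja1 and Gja5, the L-type calcium channel pore Cacna1c, the voltage-gated potassium channel pores Kcna5 and Kcnq1, and the ATP-sensitive potassium channel pores Kcnj11 and Kcnj8. They were taken by gene symbol, as every probe set whose platform annotation gives a single symbol and that symbol is 1 of the 7. They are 7 of the 8251 genes named in this way on the array and have 10 of its 12488 probe sets, 2 each for Gja1, Kcnq1 and Kcna5 and 1 for each other gene. A probe set is a group of short oligonucleotides whose signals were summarised as a linear intensity, and intensities of different probe sets are not comparable with each other. Names of probe sets that end in f, r or s mark probes shared within a gene family, chosen under relaxed design rules, or shared by several transcripts.

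Heart muscle conducts its impulse through connexin channels at the intercalated disc, where neighbouring myocytes meet. Gja1 makes the main gap junction channel of ventricular myocytes, and Gja5 that of atrial myocytes, the conduction system and arterial endothelium. Calcium entry through Cacna1c starts contraction and holds the plateau of the action potential, and potassium channels such as Kcna5 and Kcnq1 end it. ATP-sensitive potassium channels open when cell energy falls; Kcnj11 forms their pore in myocytes and Kcnj8 mainly in vascular smooth muscle and pericytes.

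Hearts came from 20 male B6/C3H hybrid mice in 4 groups of 5, with 1 array per animal. Mixed-tocopherol mice were 30 months of age and ate a diet with 500 mg/kg alpha-tocopherol and as much gamma-tocopherol from 15 months on. Alpha-tocopherol mice, also 30 months of age, ate 1000 mg/kg of alpha-tocopherol from 15 months on. Old controls were 30 months and young controls 5 months of age, both on the control diet, for which the labels give no tocopherol content. All animals were housed singly, and all are labelled F1 hybrids except old controls 1 and 4, whose labels lack the F1 mark. The comparisons ask how channel transcripts differ with age and how they differ in old animals given either form of vitamin E.

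Array medians lay between 584.6 and 639.2 intensity units, and the number of arrays limits the precision. Cardiomyocyte markers were bright on every array: all 8 such genes on the array were tested, and the brightest probe set of each read 5611.7 or more in every heart. A second, dim probe set of Ckm averaged 9.13 to 10.07 by group on the log2 scale. Of the 10 channel and connexin probe sets, 9 passed the filter that left out the dimmest 40% of probe sets by their mean over all arrays; the second Kcna5 probe set (161775_f_at) did not. Differences below are of log2(intensity + 58) ± standard error, and each p-value, from the linear models of limma, was adjusted by the Benjamini-Hochberg method across the 7453 probe sets tested; a difference is called where this value is under 0.05. The added 58 makes differences of dim probe sets smaller than their true fold. In whole hearts, fewer cells of a type and less RNA per cell cannot be told apart.

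**Figure D1:**
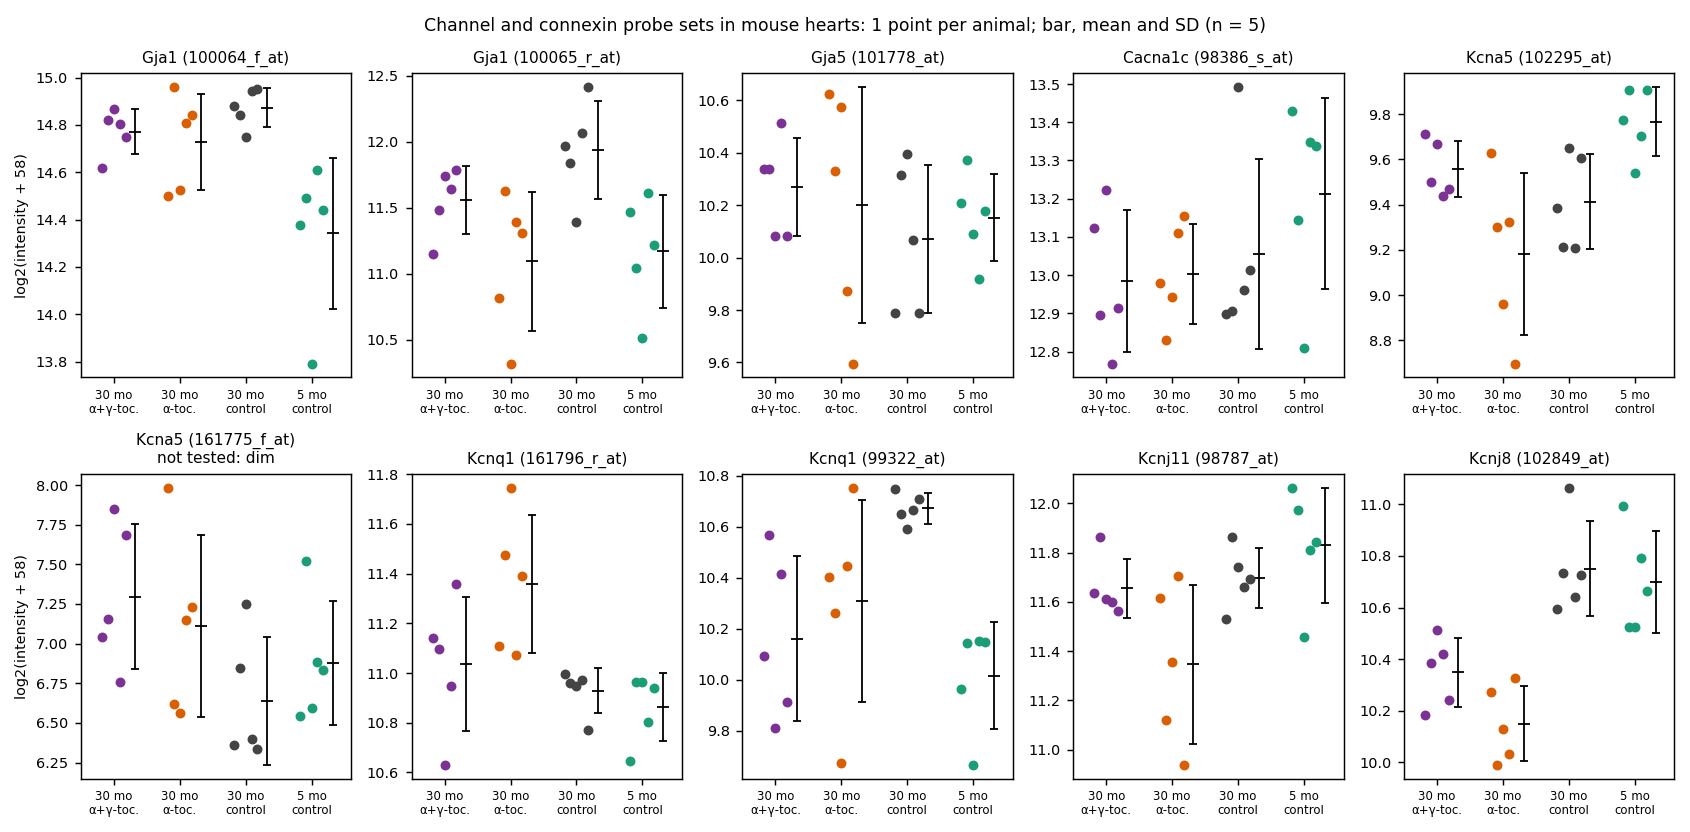
Log2(intensity + 58) of the 10 probe sets in hearts of 30-month mice fed both tocopherols, 30-month mice fed alpha-tocopherol, 30-month controls and 5-month controls. Each point is 1 animal, bars give the mean and SD (n = 5), and each panel has its own vertical scale; the old controls lie above all young controls for Gja1 100064_f_at and Kcnq1 99322_at.

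With age, 1 of 2 Gja1 probe sets and 1 of 2 Kcnq1 probe sets rose, and no probe set of the 7 genes fell. These were 2 of 9 tested probe sets, against 4.94% of all 7453 (2.74% higher and 2.20% lower). The median difference of the 9 was 0.051, beside 0.014 over all tested probe sets.

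The 250 bases before the RefSeq start of Gja1 (chr10:56377050-56377299, plus strand, GRCm38.p6) are shown because Gja1 is the gap junction gene with a probe set called for age. Capitals mark the letters of the AP-1 motif TGACTCA (read on the minus strand, 19 bases before the start) and the GATA motif GATAA (minus strand, 135 bases before the start).
Gja1: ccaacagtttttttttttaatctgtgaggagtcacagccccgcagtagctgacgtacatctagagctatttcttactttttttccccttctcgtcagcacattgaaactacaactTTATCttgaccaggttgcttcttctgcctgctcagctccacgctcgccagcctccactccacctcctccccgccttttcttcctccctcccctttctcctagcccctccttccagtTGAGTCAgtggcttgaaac
Over the same window in all 32851 RefSeq promoters of this build, 4.46% held TGACTCA and 22.6% held GATAA on either strand. The letters TATAAA (12.4% of promoters), GGGCGG (32.7%) and CACGTG (6.02%) were not in this window.

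The brighter Gja1 probe set (100064_f_at) read 30080.3, 29303.8, 27448.7, 31431.8 and 31666.4 in old controls. In young controls it read 21208.1, 22960.5, 14122.4, 24950.6 and 22204.3. All 5 old hearts lay above all 5 young hearts, with young control 3 lowest by a wide margin. The difference was 0.53 ± 0.12 (adjusted p = 0.011, limma, Benjamini-Hochberg), and leaving out any single animal kept the call (0.39 to 0.60). The other Gja1 probe set (100065_r_at) read 3949.9, 3608.5, 2634.0, 4228.0 and 5402.4 in old controls. It read 2771.7, 2054.7, 1398.4, 3072.3 and 2319.7 in young controls, so that old control 3 lay inside the young range. Its difference of 0.77 ± 0.23 missed the threshold (adjusted p = 0.057, limma) and passed it without old control 3 and 3 other single animals (lowest adjusted p = 0.029). Over the 20 arrays the 2 Gja1 probe sets varied together (Pearson r = 0.74, Spearman rho = 0.76, permutation p = 0.00014 and 0.00015, Benjamini-Hochberg adjusted over 3 such pairs 0.00042 and 0.00045). Without the 2 arrays farthest from the median r was 0.78, and after removal of group means it was 0.82. The permutations ran over all arrays irrespective of group, and the value after removal of group means was not tested.

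Kcnq1 codes for the pore of the slow delayed rectifier, a current that shortens the action potential under adrenergic drive. Its probe set 99322_at read 1663.1, 1550.6, 1483.5, 1565.0 and 1614.3 in old controls. In young controls it read 941.3, 1074.1, 754.3, 1078.1 and 1075.8. The groups did not overlap, and the old controls spanned a narrow range. Groups without overlap occurred for 2 of the 9 probe sets, Gja1 100064_f_at and this one, and for 7.02% of all tested probe sets. The difference was 0.66 ± 0.18 (adjusted p = 0.031, limma, Benjamini-Hochberg). This call was lost when old control 1, 2, 4 or 5, or young control 1 or 3, was left out (highest adjusted p = 0.074). The second Kcnq1 probe set (161796_r_at) ran from 1688.1 to 1986.6 in old controls and from 1546.1 to 1938.3 in young controls, and differed by 0.07 ± 0.14 (adjusted p = 0.87, limma). No relation between the 2 Kcnq1 probe sets passed the test over the 20 arrays (Pearson r = -0.10, Spearman rho = 0.03, permutation p = 0.67 and 0.91, the same values after adjustment over 3 pairs; r = 0.19 without the 2 arrays farthest from the median and -0.27 after removal of group means). The age difference of Kcnq1 therefore rests on 99322_at alone.

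The other potassium and calcium channel genes did not pass the test with age. Kcna5, the pore of an ultrarapid delayed rectifier (probe set 102295_at), ran from 532.7 to 745.7 in old controls and from 687.0 to 902.4 in young controls, with overlap (-0.35 ± 0.18, adjusted p = 0.30, limma). Cacna1c had values of 7574.6 to 11464.7 in old controls and 7116.2 to 10966.7 in young controls (-0.16 ± 0.13, adjusted p = 0.59, limma). Old control 3 was the highest Cacna1c value of its group and young control 3 the lowest of its own. With any single animal left out, Cacna1c was not called (lowest adjusted p = 0.23, limma). Old control 3 is also the array whose Gapdh signal at the 3' end exceeded that at the 5' end by 1.21 on the log2 scale, the highest of the old controls. Gja5 ran from 827.1 to 1287.4 in old controls and from 909.1 to 1266.1 in young controls (-0.08 ± 0.19). Kcnj11 ran from 2900.0 to 3669.4 in old controls and from 2751.6 to 4217.5 in young controls (-0.13 ± 0.14), and Kcnj8 from 1488.5 to 2080.9 and from 1416.5 to 1978.3 (0.05 ± 0.13).

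Without old controls 1 and 4, which lack the F1 mark, 0 of the 9 probe sets were called for age by limma. Of all 7453 tested probe sets 150 were called in that fit, against 368 with all animals. Gja1 100064_f_at was then at 0.51 ± 0.15 (adjusted p = 0.081) and Kcnq1 99322_at at 0.64 ± 0.22 (adjusted p = 0.15), with 3 old controls left. With all old controls kept, atrial markers were called higher in 1 of 6 probe sets (Myl4), beside 2.74% higher of all tested probe sets. The median difference of the 6 was 0.40, beside 0.014 over all tested probe sets. The summed intensity of the 5 atrial genes was 94430 to 125710 in old controls, against 59851 to 108530 in young controls. Cardiomyocyte markers were called in 0 of 10 probe sets and endothelial markers were higher in 2 of 13 (Pecam1 and Cldn5). The part of these cells in the Gja1 and Kcnq1 differences was not tested.

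**Figure D2:**
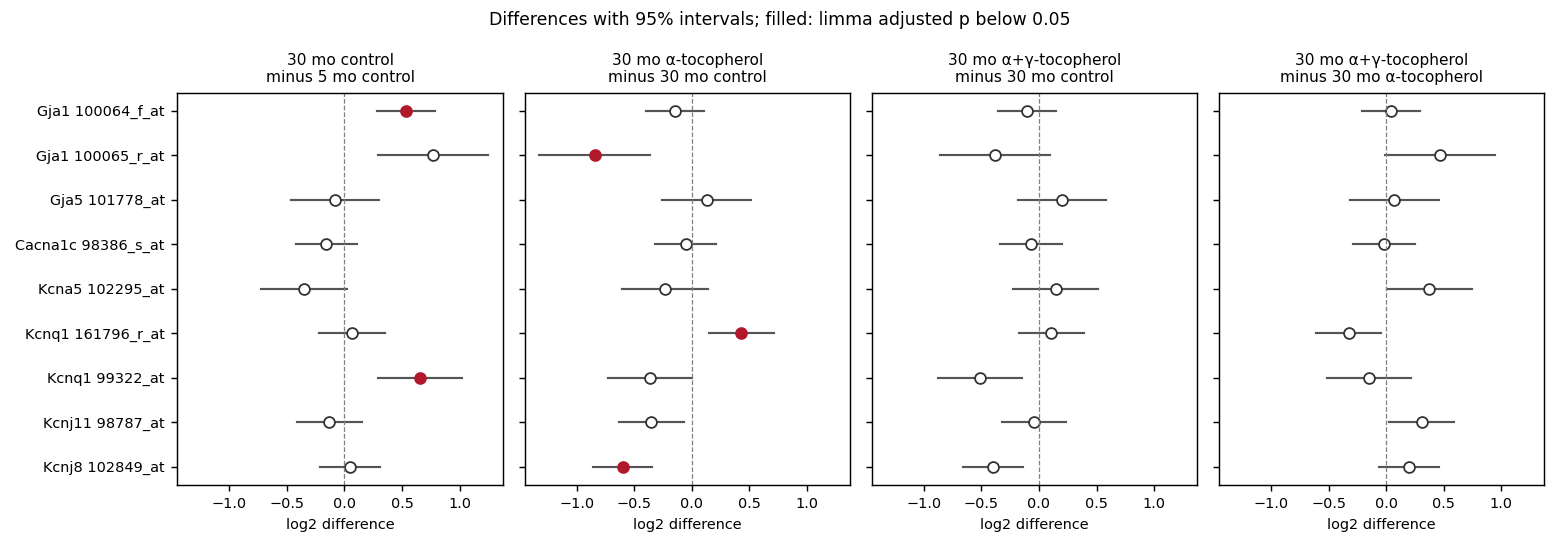
Log2 differences of the 9 tested probe sets in 4 comparisons, with unadjusted 95% intervals. Filled points passed an adjusted p of 0.05: 2 for age, 3 for alpha-tocopherol, 0 for mixed tocopherols and 0 between the supplements.

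In alpha-tocopherol hearts Kcnj8 and 1 of 2 Gja1 probe sets fell relative to old controls, and 1 of 2 Kcnq1 probe sets rose. These 3 of 9 tested probe sets stand beside 21.7% of all tested probe sets called in this comparison (8.94% higher and 12.8% lower). The median difference of the 9 was -0.23, beside -0.019 over all tested probe sets.

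Kcnj8 had the smallest adjusted p of the 9. The 250 bases before its start (chr6:142571615-142571864, minus strand, RefSeq, GRCm38.p6) are shown beside those of Gja1 as the other gene that fell; none of the 5 motifs searched was in this window, so it carries no capitals.
Kcnj8: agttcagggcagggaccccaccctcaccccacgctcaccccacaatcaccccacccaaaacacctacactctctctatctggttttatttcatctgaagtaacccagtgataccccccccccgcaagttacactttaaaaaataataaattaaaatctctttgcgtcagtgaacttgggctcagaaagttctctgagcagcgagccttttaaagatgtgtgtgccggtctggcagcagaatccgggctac

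Kcnj8 read 1177.8, 959.6, 1060.9, 990.1 and 1226.7 in alpha-tocopherol hearts. In old controls it read 1488.5, 1642.7, 2080.9, 1537.4 and 1636.4. The groups did not overlap, as for 2 of the 9 probe sets (this one and Kcnq1 161796_r_at) and for 16.2% of all tested probe sets. The difference was -0.60 ± 0.13 (adjusted p = 0.0017, limma, Benjamini-Hochberg), and it stayed called when any single animal was left out (-0.65 to -0.52). Abcc9, a sulphonylurea receptor of ATP-sensitive potassium channels, differed by -0.58 ± 0.22 (adjusted p = 0.063, limma). It passed the test without young control 3, without old control 3, or without alpha-tocopherol animal 1. Of 9 probe sets for smooth muscle and pericyte markers, a list that includes Abcc9, 2 fell (smooth muscle actin Acta2 at -0.65 ± 0.17 and smooth muscle myosin Myh11 at -0.99 ± 0.27) and 1 rose (Des, also a cardiomyocyte protein, at 0.41 ± 0.14). The summed intensity of the 8 genes of this list was 18645 to 24083 in alpha-tocopherol hearts, against 21538 to 27187 in old controls, and none was near 0 (lowest 492.1 and 493.3). Endothelial markers fell in 3 of 13 probe sets, with sums of 27733 to 33023 in alpha-tocopherol hearts and 32092 to 38380 in old controls. The median of the smooth muscle and pericyte list was -0.51. Other marker lists also moved on these arrays, where 12.8% of all tested probe sets fell and 8.94% rose. Fibroblast markers fell in 6 of 12 probe sets and rose in 1 (median -0.52, Col3a1 at -1.39 ± 0.26 and Lum at -0.95 ± 0.16), with sums of 57716 to 88190 in alpha-tocopherol hearts and 72914 to 79304 in old controls. Macrophage markers fell in 4 of 9 and rose in 1, with sums of 13108 to 22990 and 24113 to 26738 in the same groups. Of 2 liver probe sets, Alb (serum albumin) fell by 4.71 on the log2 scale (adjusted p = 4.1e-05, limma), with sums of the liver genes at 277.9 to 792.1 in alpha-tocopherol hearts and 2099.3 to 13632 in old controls. The part of any of these cells in the Kcnj8 difference was not tested.

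Kcnj11, the myocyte counterpart of Kcnj8, read 3080.1, 2167.5, 2560.4, 3278.5 and 1905.7 in alpha-tocopherol hearts. In old controls it read 2900.0, 3669.4, 3367.1, 3176.9 and 3256.8. Alpha-tocopherol animals 2, 3 and 5 lay below all old controls, and animals 1 and 4 within their range. The difference of -0.35 ± 0.14 missed the threshold (adjusted p = 0.066, limma), and passed it without alpha-tocopherol animal 1, animal 4 or young control 3 (lowest adjusted p = 0.024).

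The Gja1 probe sets moved by different amounts with alpha-tocopherol. Gja1 100065_r_at read 1740.6, 3111.8, 1217.9, 2634.6 and 2476.5 in alpha-tocopherol hearts. Animals 1, 3 and 5 lay below the lowest old control (2634.0), animal 4 level with it and animal 2 within the old control range. Its difference from old controls was -0.84 ± 0.23 (adjusted p = 0.012, limma, Benjamini-Hochberg), and it stayed called when any single animal was left out (-0.98 to -0.65). Gja1 100064_f_at, the set that was called for age, read 23079.5, 31808.5, 23547.5, 28656.5 and 29295.7 in the same hearts. It differed from old controls by -0.15 ± 0.12 (adjusted p = 0.41, limma). Both probe sets had their lowest alpha-tocopherol values in animals 1 and 3. Cardiomyocyte markers were higher in 4 of 10 probe sets in this comparison, beside 8.94% higher of all tested probe sets. Their sums were 668560 to 796150 in alpha-tocopherol hearts and 550150 to 656520 in old controls. Fibroblast markers fell in 6 of 12 probe sets and macrophage markers in 4 of 9, beside 12.8% lower of all tested probe sets, and 1 of each rose. Median sums in alpha-tocopherol hearts and old controls were 80589 and 74970 for fibroblast genes, and 16052 and 26269 for macrophage genes. The part of these cells in the Gja1 values was not tested.

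The Kcnq1 probe sets differed in opposite directions. Kcnq1 161796_r_at read 2152.0, 2788.8, 3373.1, 2097.8 and 2626.9 in alpha-tocopherol hearts. In old controls it read 1986.6, 1931.5, 1916.8, 1951.1 and 1688.1, all lower. The difference was 0.43 ± 0.14 (adjusted p = 0.028, limma, Benjamini-Hochberg), and the call was lost without alpha-tocopherol animal 2, animal 3 or old control 5 (highest adjusted p = 0.091). Kcnq1 99322_at read 1297.8, 1169.2, 759.1, 1335.9 and 1666.6 in alpha-tocopherol hearts. Of these, 4 lay below all old controls, and animal 5 lay just above the highest old control (1663.1). Its difference was -0.37 ± 0.18 (adjusted p = 0.14, limma). Alpha-tocopherol animal 3 was the highest of its group in 161796_r_at and the lowest in 99322_at. No direction for Kcnq1 as a gene follows from these values.

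Kcna5, Cacna1c and Gja5 did not pass the test with alpha-tocopherol. Kcna5 ran from 356.9 to 732.8 in alpha-tocopherol hearts and from 532.7 to 745.7 in old controls (-0.23 ± 0.18). Cacna1c ran from 7224.6 to 9053.3 and from 7574.6 to 11464.7 in the same groups (-0.05 ± 0.13), and Gja5 from 715.5 to 1522.3 and from 827.1 to 1287.4 (0.13 ± 0.19). The SD of Gja5 within alpha-tocopherol hearts was 0.45 on the log2 scale, against 0.28 in old controls.

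Technical signals differed between the same arrays. The mean log2 level of 9 probe sets for bacterial hybridization controls was 13.32 to 13.78 on alpha-tocopherol arrays and 12.55 to 12.92 on old control arrays. The mean of 3 probe sets for 18S ribosomal RNA was 12.21 to 12.74 on alpha-tocopherol arrays and 10.16 to 11.23 on old control arrays. For both the exact two-sided permutation p was 0.0079, the smallest that 5 against 5 arrays allow (0.032 after Benjamini-Hochberg adjustment over 16 such tests). With either level as a covariate, 0 of the 9 probe sets were called for alpha-tocopherol. Of all 7453 tested probe sets, 144 were called with the hybridization level and 142 with the 18S level, against 1619 with no covariate. With the hybridization level Kcnj8 was -0.81 ± 0.22 (adjusted p = 0.056, limma), Gja1 100065_r_at -0.84 ± 0.41 (adjusted p = 0.29) and Kcnq1 161796_r_at 0.78 ± 0.22 (adjusted p = 0.067). With the 18S level these were -0.58 ± 0.20 (adjusted p = 0.13, limma), -0.54 ± 0.36 (adjusted p = 0.44) and 0.18 ± 0.21 (adjusted p = 0.69). Neither level overlapped between alpha-tocopherol and old control arrays, so diet and these levels cannot be told apart by such fits. The standard error of Kcnj8 was larger in each of them. Without old controls 1 and 4 only Kcnj8 stayed called of the 9, beside 981 of all 7453 tested probe sets.

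**Figure D3:**
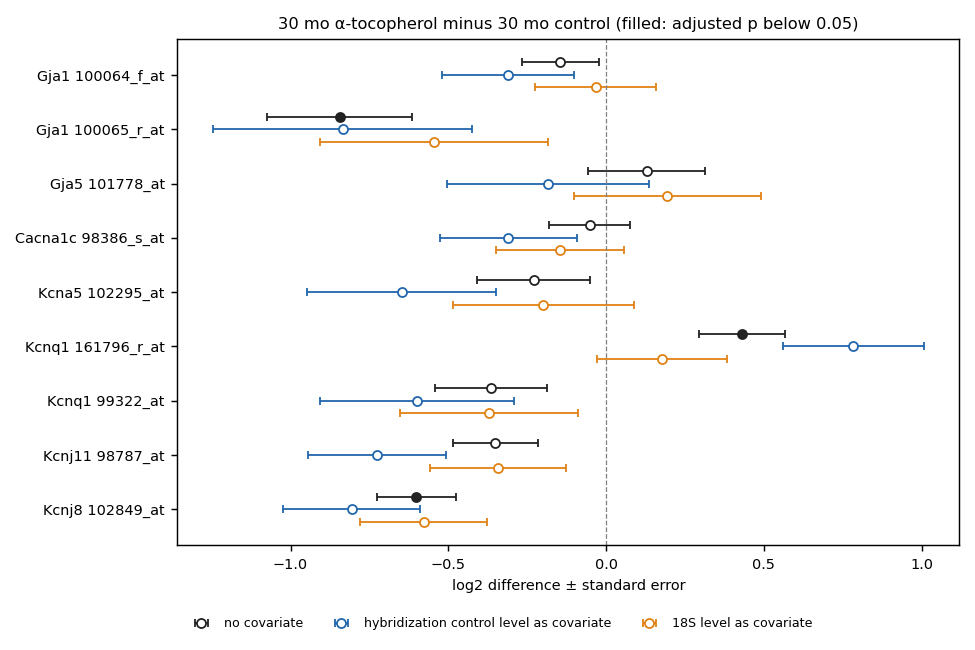
Log2 difference (point) and standard error (bar) of the 9 tested probe sets between alpha-tocopherol hearts and old controls, with no covariate and with the level of the hybridization controls or of 18S RNA as a covariate. Filled points passed an adjusted p of 0.05; the 3 that did so without a covariate, such as Kcnj8 at -0.60, did not with either covariate.

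In mixed-tocopherol hearts 0 of the 9 probe sets were called against old controls by limma, beside 6.43% of all tested probe sets (2.67% higher and 3.76% lower). At an unadjusted p under 0.05 there were 2 of 9, and 22.9% of all tested probe sets. With array weights 2 of 9 were called, beside 858 of all 7453 tested probe sets (479 with no weights). Kcnj8 read 1104.5, 1280.6, 1404.0, 1312.1 and 1152.7 in mixed-tocopherol hearts, all below the lowest old control (1488.5). Its difference was -0.40 ± 0.13 (adjusted p = 0.056, limma, Benjamini-Hochberg). Kcnq1 99322_at read 1034.0, 1459.8, 839.5, 1308.7 and 906.0, also all below the lowest old control (1483.5), and differed by -0.51 ± 0.18 (adjusted p = 0.084, limma). The 2 probe sets without overlap stand beside 8.32% of all tested probe sets. These 2 were also the ones called with array weights (-0.35 ± 0.11 and -0.50 ± 0.15, adjusted p = 0.042 and 0.032, limma). Smooth muscle and pericyte markers fell in 1 of 9 probe sets (Acta2, -0.65 ± 0.17), with sums of 18358 to 23250 in mixed-tocopherol hearts and 21538 to 27187 in old controls, and endothelial markers in 3 of 13. Fibroblast markers fell in 4 of 12 probe sets and rose in 1 (Col3a1 at -1.54 ± 0.26), with sums of 54836 to 82688 in mixed-tocopherol hearts and 72914 to 79304 in old controls, and macrophage markers fell in 1 of 9. Alb fell by 4.33 on the log2 scale (adjusted p = 0.00050, limma), with liver sums of 239.7 to 873.2 in mixed-tocopherol hearts and 2099.3 to 13632 in old controls. The part of these cells in the Kcnj8 values was not tested. Both supplement comparisons use the same 5 old controls, so their values are given side by side and not as 2 separate observations.

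For Gja1 100065_r_at, mixed-tocopherol values were 2214.3, 2797.0, 3355.6, 3132.0 and 3475.6, and the difference from old controls was -0.38 ± 0.23 (adjusted p = 0.34, limma). Gja1 100064_f_at read 25099.6, 28860.2, 29862.1, 28552.2 and 27440.2, for a difference of -0.10 ± 0.12. The remaining 5 probe sets differed from old controls by -0.07 to 0.20, namely Cacna1c (-0.07 ± 0.13), Kcnj11 (-0.04 ± 0.14), Kcnq1 161796_r_at (0.11 ± 0.14), Kcna5 (0.15 ± 0.18) and Gja5 (0.20 ± 0.19). In this group the hybridization controls (12.39 to 13.32) and the 18S signal (9.90 to 11.98) overlapped those of old controls.

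Gamma-tocopherol lacks a ring methyl group that alpha-tocopherol has. The mixed diet held 500 mg/kg of alpha-tocopherol in place of 1000 mg/kg and also held gamma-tocopherol, so a lower dose and the added form cannot be told apart. Between mixed-tocopherol and alpha-tocopherol hearts, the only pair of supplements compared, 0 of the 9 probe sets were called by limma, beside 0.564% of all tested probe sets. At an unadjusted p under 0.05 there were 3 of 9 and 15.9% of all tested probe sets. These were Kcnj11 (0.31 ± 0.14, 95% interval 0.03 to 0.59, adjusted p = 0.27), Kcna5 (0.38 ± 0.18, 0.00 to 0.75, adjusted p = 0.31) and Kcnq1 161796_r_at (-0.32 ± 0.14, -0.61 to -0.04, adjusted p = 0.25). For Kcnj8 the interval was -0.06 to 0.46, for Gja1 100064_f_at -0.21 to 0.30 and for Cacna1c -0.28 to 0.25. Gja1 100065_r_at had an interval of -0.01 to 0.94, Gja5 of -0.31 to 0.46 and Kcnq1 99322_at of -0.51 to 0.22. None of the 9 was without overlap between these groups, against 3.90% of all tested probe sets. The hybridization and 18S levels were lower on mixed-tocopherol arrays than on alpha-tocopherol arrays by 0.57 and 1.14 (log2), with exact permutation p = 0.0079 each.

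Read by the order of group means, Gja1 100064_f_at ran from old controls through mixed-tocopherol and alpha-tocopherol hearts to young controls, and of these neighbours alpha-tocopherol hearts and young controls differed (adjusted p = 0.035, limma). For each of the other 8 tested probe sets, neighbours in the order did not differ past the threshold; their adjusted p ranged from 0.10 to 0.97. Alpha-tocopherol hearts set directly against young controls had 5 of 9 probe sets called, beside 15.6% of all tested probe sets. Gja1 100064_f_at (0.38 ± 0.12) and Kcnq1 161796_r_at (0.50 ± 0.14) were higher than in young controls. The other probe sets of these genes, Gja1 100065_r_at (-0.08 ± 0.23) and Kcnq1 99322_at (0.29 ± 0.18), were not called. Kcna5 (-0.58 ± 0.18), Kcnj8 (-0.55 ± 0.13) and Kcnj11 (-0.48 ± 0.14) were lower. Mixed-tocopherol hearts had 1 of 9 called against young controls, Gja1 100064_f_at (0.43 ± 0.12, adjusted p = 0.039, limma), beside 5.55% of all tested probe sets. Gja1 100065_r_at was at 0.39 ± 0.23 in that comparison, not called. The calls against young controls fell to 2 in all when only the compared groups were fitted or with the hybridization covariate, and to 0 with the 18S covariate. Counts over all tested probe sets are not at hand for these fits, so whether the loss is particular to these genes cannot be told.

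The second Kcna5 probe set, below the filter, ran from 50.1 to 172.4 in mixed-tocopherol hearts, 36.4 to 194.6 in alpha-tocopherol hearts, 22.6 to 94.4 in old controls and 35.1 to 125.7 in young controls. Its values overlapped in every pair of groups and were not tested. Over 20 arrays its relation to the tested Kcna5 probe set did not pass the test (Pearson r = 0.21, Spearman rho = 0.26, permutation p = 0.37 and 0.27, adjusted 0.56 and 0.40; r = 0.31 without the 2 arrays farthest from the median and 0.42 after removal of group means).

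The 7 genes differed in spread within groups. In old controls the coefficient of variation was 4.30% for Kcnq1 99322_at and 25.3% for Gja1 100065_r_at, with the other 7 tested probe sets between. In alpha-tocopherol hearts it was 22.5% for Kcnj11, against 8.57% in old controls, and 26.3% for Kcnq1 99322_at. Among 5662 other named genes, those whose log2 values over the 20 arrays ran closest to each channel gene (its brightest probe set) were taken by Pearson r, as a description and with no test. Closest to Gja1 were Spryd4 (r = 0.86, rho = 0.78) and the hexokinase Hk2 (r = 0.85, rho = 0.73). Closest to Kcnj8 were the endosomal GTPase Rab5a (r = 0.91, rho = 0.90) and Fbxo9 (r = 0.88, rho = 0.89). Kcnj11 ran with the efflux transporter Abcb1a (r = 0.86, rho = 0.75) and the laminin chain Lama2 (r = 0.78, rho = 0.76), and Kcnq1 161796_r_at, not the set called for age, with the adhesion protein Tln1 (r = 0.84, rho = 0.80) and Nat8f1 (r = 0.84, rho = 0.67). For Gja5 these were Cdk2ap2 (r = 0.77, rho = 0.77) and the cardiac transcription factor Hand2 (r = 0.73, rho = 0.74). Kcna5 ran with Cebpb (r = 0.77, rho = 0.78) and Surf2 (r = 0.76, rho = 0.63), and Cacna1c with Snrk (r = 0.72, rho = 0.53) and Ptov1 (r = 0.69, rho = 0.69). All these points share arrays and group differences, so the values describe likeness on these 20 arrays only.

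Other genes of the same system were taken from 9 lists of channels, accessory subunits, junction proteins, pumps and scaffolds. The lists held 130 genes, of which 82 were on the array and 42, with 52 probe sets, passed the filter. Among those not tested were the connexins Gjc1 and Gja4 and the potassium channels Kcnd2 and Kcnj2, which were on the array but below the filter; in all, 7 of the 8 other connexin genes on the array were. With age 1 of 52 rose and 0 fell, beside 2.74% higher and 2.20% lower of all tested probe sets. Kcnk1, a leak potassium channel, ran from 1028.4 to 1350.4 in old controls and from 326.8 to 755.3 in young controls (1.00 ± 0.20, adjusted p = 0.0033, limma). Of the 10 probe sets for inward rectifiers, leak channels and sulphonylurea receptors it was the only one called. The median of the 52 was 0.040, and Kcnd3, Kcne1, Kcnh2, Abcc9, Cacnb2, Cacna2d1, Cdh2 and Tjp1 lay between -0.32 and 0.23, none called.

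Against old controls, alpha-tocopherol hearts had 11 of these 52 probe sets called, 2 higher and 9 lower, near the 21.7% called of all tested probe sets, with a median of -0.030. In the intercalated disc list 4 of 12 fell: beta-catenin Ctnnb1, which links cadherins to the cytoskeleton (7117.2 to 9936.7 in alpha-tocopherol hearts and 15496 to 20231 in old controls, -1.01 ± 0.10, adjusted p = 1.6e-06, limma), N-cadherin Cdh2 (-0.58 ± 0.14), the connexin-binding scaffold Tjp1 (-0.43 ± 0.12) and alpha-catenin Ctnna1 (-0.38 ± 0.12). The median of this list was -0.25. The Ctnna1 call (adjusted p = 0.031, limma) was lost without alpha-tocopherol animal 1, 2 or 3, or without old control 1, 2 or 5. Among calcium channel subunits the auxiliary Cacna2d1 fell (109.4 to 958.3 in alpha-tocopherol hearts and 1227.4 to 2184.9 in old controls, -1.52 ± 0.34) and the neuronal pore Cacna1b rose (0.60 ± 0.14), while Cacnb2, an auxiliary subunit bound to the Cacna1c pore, was at -0.01 ± 0.23. Kcne1, the accessory subunit of Kcnq1, fell (183.7 to 818.3 in alpha-tocopherol hearts and 528.2 to 1072.4 in old controls, -1.15 ± 0.37, adjusted p = 0.029, limma); this call was lost without alpha-tocopherol animal 1, 2 or 3, or without old control 1, 2, 4 or 5. The pacemaker channel Hcn2 rose (0.61 ± 0.16). The sodium-calcium exchanger Slc8a1 (-0.58 ± 0.14) and the caveolins Cav1 (-0.55 ± 0.13) and Cav3 (-0.54 ± 0.13) fell, each at its brightest probe set; the other tested probe sets of these 3 genes were at 0.12 ± 0.31, 0.13 ± 0.23 and -0.13 ± 0.14, not called. Slc8a1, Cav1, Cav3 and Ctnna1 were named after their values were seen. Kcnd3 (0.20 ± 0.40) and Kcnh2 (-0.03 ± 0.12), pores of other repolarising currents, did not pass the test. With the hybridization or the 18S covariate 1 of the 11 stayed called, Ctnnb1, beside 144 and 142 of all 7453 tested probe sets. Without old controls 1 and 4 there were 7, beside 981 of all 7453.

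Mixed-tocopherol hearts had 3 of the 52 called against old controls, near the 6.43% called of all tested probe sets. Ctnnb1 fell (10343 to 13804 in mixed-tocopherol hearts and 15496 to 20231 in old controls, -0.50 ± 0.10, adjusted p = 0.0054, limma). Cacna1b rose (0.55 ± 0.14), and so did Kcnj5, part of an atrial acetylcholine-gated channel, which ran from 936.5 to 1444.9 in mixed-tocopherol hearts and from 56.2 to 723.3 in old controls (1.44 ± 0.42, adjusted p = 0.043, limma). The Kcnj5 call was lost without any single mixed-tocopherol animal, without old control 1, 2, 3 or 4, without alpha-tocopherol animal 2 and without young control 1. It was also lost with a pseudocount of 20, no filter, plain eBayes settings, the compared groups alone, the hybridization covariate, without old controls 1 and 4, and without old and young control 3. On these arrays atrial markers were called lower in 1 of 6 probe sets (Myl4, -0.61 ± 0.17), and the median of the 6 was -0.36. Their sums were 67338 to 90658 in mixed-tocopherol hearts and 94430 to 125710 in old controls. Between the supplements Ctnnb1 was called, higher in mixed-tocopherol hearts than in alpha-tocopherol hearts by 0.51 ± 0.10 (adjusted p = 0.032, limma), as 1 of 52; this call was lost without alpha-tocopherol animal 3 or 5, or without mixed-tocopherol animal 3 or 4, with plain eBayes settings, with the compared groups alone and with the 18S covariate. With the hybridization covariate, and without old controls 1 and 4, Ctnnb1 alone stayed called against old controls, beside 242 and 162 of all 7453 tested probe sets. It was not called between the supplements in either setting. Cacna2d1 (-0.82 ± 0.34), Kcne1 (-0.62 ± 0.37), Cdh2 (-0.24 ± 0.14), Abcc9 (-0.34 ± 0.22), Tjp1 (-0.13 ± 0.12), Kcnh2 (-0.08 ± 0.12), Cacnb2 (0.13 ± 0.23) and Kcnd3 (1.12 ± 0.40) did not pass the test against old controls in mixed-tocopherol hearts.

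**Figure D4:**
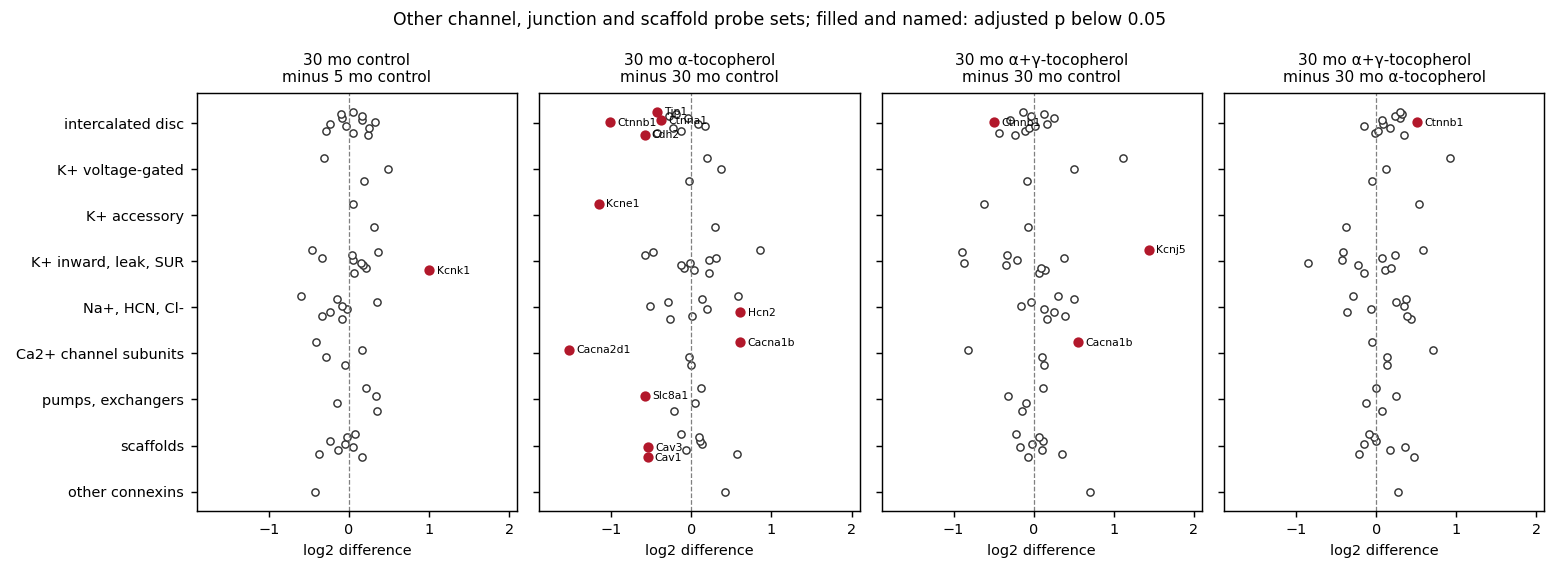
Log2 differences of 52 probe sets for other channel, junction, pump and scaffold genes, by list, in the 4 comparisons. Filled points carry the gene name and passed an adjusted p of 0.05: 1 for age, 11 for alpha-tocopherol, 3 for mixed tocopherols and 1 between the supplements.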

How the data were processed

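The authors deposited linear intensity values for each probe set; from the values, every array had a mean near 1501 after 2% was trimmed at each end, and their software was not given in the sources used here. Per the labels' protocols, polyadenylated RNA from frozen tissue was labelled through an oligo-dT primer, 1 animal per array. Symbols came from the platform annotation and matched RefSeq (GRCm38.p6) for 10817 of 10833 probe sets with 1 symbol; those with several or none were tested and not named. On log2(intensity + 58), array controls (66 probe sets) were set aside, as was the dimmest 40% of what remained. A single model of the 4 groups over all 20 arrays was run in limma 3.58.1 (R 4.3.3), using lmFit and a robust eBayes with an intensity trend and 16 residual degrees of freedom, with calls at an adjusted p below 0.05. The fit was tested on simulated data. The member genes, lists and settings were chosen with earlier results of these data known. All probe sets of the 7 genes are described; from the lists, the 3 highest and 3 lowest calls per comparison and 14 fixed genes (8 of them tested) were to be named. Alternatives were other pseudocounts, filters, scalings, weights, covariates and samples left out.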

Additional observations from a re-analysis of the deposited data

Results flagged for a closer look

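In 40 sets of 5 values (10 probe sets in 4 groups), 4 had a highest or lowest animal whose gap to its nearest neighbour took up more of the group's range than Dixon's 95% limit of 0.71; chance gives about 1 in 20 such flags. Gja1 100064_f_at was 14122 in young control 3, against 21208.1 to 24950.6 in the other young controls. Cacna1c was 11465 in old control 3, against 7574.6 to 8216.8 in the other old controls. Kcnq1 161796_r_at was 1688.1 in old control 5, against 1916.8 to 1986.6 in the others. Kcnj11 was 3666.0 in mixed-tocopherol animal 2, against 2968.3 to 3121.3 in the others of its group.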

How the results depend on the processing

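Other pseudocounts, the 20% filter, median centring, quantile normalization and plain eBayes settings changed no call of the 9 probe sets in the 4 comparisons; log2 medians of the arrays spanned 0.12. With no filter 1 was called for age, beside 290 of all 12422 probe sets, as Kcnq1 99322_at just missed the threshold (adjusted p = 0.0502, limma). With array weights 2 were called for mixed tocopherols. Without old controls 1 and 4 there were 0 for age and 1 for alpha-tocopherol. With the hybridization or 18S covariate 0 were called for alpha-tocopherol, and calls against young controls, 6 in all, were 2 and 0; fits of the compared groups alone gave 2. Leaving out single animals gave 1 to 3 calls for age, 2 to 4 for alpha-tocopherol, 0 to 1 for mixed tocopherols, 0 between supplements and 2 to 6 against young controls. Of all tested probe sets, those fits called 258 to 416 for age, 1179 to 1713 for alpha-tocopherol, 263 to 556 for mixed tocopherols and 0 to 79 between supplements. For calls against young controls, no such counts are at hand in the alternative fits. Over all tested probe sets, calls for age were 731 with array weights and 150 without old controls 1 and 4 (368 in the main analysis). For alpha-tocopherol they were 144 and 142 with the hybridization and 18S covariates and 981 without old controls 1 and 4 (1619). For mixed tocopherols they were 858 with array weights, 242 with the hybridization covariate and 162 without old controls 1 and 4 (479). Between supplements they ranged from 0 to 79 (42). Small differences that were not called changed sign. Between supplements these were Cacna1c (0.15 and 0.046) and Kcnq1 99322_at (0.0089, hybridization covariate only) with the hybridization or 18S covariate, and Gja1 100064_f_at (-0.033) with 18S. For alpha-tocopherol they were Gja5 (-0.18, hybridization covariate) and Cacna1c (0.040 with array weights, 0.058 without young and old control 3). Without those arrays Cacna1c was 0.039 for mixed tocopherols. With age Kcnj8 was -0.033 (array weights) and -0.071 (without young and old control 3), and Gja5 0.014 (without old controls 1 and 4). Leaving out single animals, sign changes came in these ranges: between supplements Gja1 100064_f_at -0.013 to 0.10, Gja5 -0.080 to 0.18 and Cacna1c -0.078 to 0.036; Cacna1c -0.091 to 0.058 for alpha-tocopherol and -0.13 to 0.039 for mixed tocopherols; Kcnj8 -0.027 to 0.12 with age. The causes were not tested. With the replicate number as a block (replicate block), 3, 3, 0 and 0 probe sets were called for age, alpha-tocopherol, mixed tocopherols and between supplements, as Gja1 100065_r_at joined for age (0.77, adjusted p = 0.023, limma); Kcnj5 was not called for mixed tocopherols in that fit. Of all tested probe sets, that fit called 347, 1578, 451 and 34 in the same order. The replicate numbers are sample numbers only, and residuals of same-numbered arrays correlated between -0.08 and 0.10.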
